A study of Mus musculus with 16 samples.

Results

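The miR-17-92 cluster and its paralogs are a family of microRNAs (miRNAs, short RNAs that bind messenger RNAs and lower their output) made from 3 gene clusters named miR-17-92, miR-106a-363 and miR-106b-25. Its 10 members were taken by name from the 1881 mouse miRNAs on the array: mmu-miR-17-5p, mmu-miR-18a-5p, mmu-miR-19a-3p, mmu-miR-19b-3p, mmu-miR-20a-5p, mmu-miR-92a-3p, mmu-miR-106a-5p, mmu-miR-106b-5p, mmu-miR-93-5p and mmu-miR-25-3p. Rows of that name existed for 9 of the 10, and mmu-miR-106a-5p was not analysed here. Below, the species prefix mmu is left out. The serum came from heart blood of male mice aged 4, 8, 36 or 58 weeks, 4 animals per age, and was hybridized on 16 arrays to ask which circulating miRNAs change with ageing. No genotype, strain or treatment is given in the sources used here, and every sample was serum from a male mouse. Each array received 1 ng of serum RNA labelled with Cy3, a fluorescent dye. The labels number the samples as replicates of an age, and the series' text counts them as mice. Serum pools miRNAs shed by many tissues, so fewer source cells and less RNA per cell cannot be told apart.

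Each cluster is transcribed as 1 precursor that is cut into several hairpins, and each hairpin yields a mature miRNA that picks its targets mainly through its seed, the bases near its 5′ end. miR-17-92 is a classic target of the transcription factor Myc and is known as an oncogenic cluster in lymphoma. The miR-17 seed family represses cell cycle brakes such as Cdkn1a, and miR-106b-25 lies within Mcm7, which encodes a subunit of the helicase that licenses DNA replication. miR-92a is known in endothelium as a brake on vessel growth, and in blood it is plentiful in red cells and platelets.

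The mature sequences of the measured members are shown because near-identical members were detected on very different numbers of arrays. They are from RefSeq (GRCm38.p6), written 5′ to 3′ with the seed, bases 2 to 8, in capitals. The miR-17 seed AAAGUGC was shared by miR-17-5p, miR-20a-5p, miR-106b-5p and miR-93-5p.
mmu-miR-17-5p: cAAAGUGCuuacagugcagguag
mmu-miR-20a-5p: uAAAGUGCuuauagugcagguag
mmu-miR-106b-5p: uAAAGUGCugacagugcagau
mmu-miR-93-5p: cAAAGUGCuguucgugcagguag
The seed of miR-18a-5p was AAGGUGC.
mmu-miR-18a-5p: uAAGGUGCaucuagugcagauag
The miR-19 seed GUGCAAA was shared by 2 members.
mmu-miR-19a-3p: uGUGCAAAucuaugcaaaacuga
mmu-miR-19b-3p: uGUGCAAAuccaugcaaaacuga
The miR-92 seed AUUGCAC was shared by 2 members from different clusters.
mmu-miR-92a-3p: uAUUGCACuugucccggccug
mmu-miR-25-3p: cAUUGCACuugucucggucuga

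Counting from 1 at the 5′ end, miR-17-5p and miR-20a-5p differed at 2 of 23 bases (C1U and C12U, miR-17-5p first). miR-19a-3p and miR-19b-3p differed at 1 of 23 bases (U11C, miR-19a-3p first). How far the array's probes tell such neighbours apart was not tested.

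The 6 hairpins of miR-17-92 lay within 836 bases of chromosome 14 (chr14:115043671-115044506, plus strand). The 3 hairpins of miR-106b-25 lay within 498 bases of chromosome 5 (chr5:138165321-138165818, minus strand), all inside Mcm7. The miR-106a-363 cluster held 6 hairpins in 875 bases of the X chromosome (chrX:52741693-52742567, minus strand). Mature miR-19b-3p and miR-92a-3p are each made from 1 hairpin on chromosome 14 and 1 on the X chromosome, with the same sequence, so the array cannot say which cluster they came from.

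Signals are given as log2 of the scaled intensity, with a floor at 1.92 below which no level can be read, and "detected" is the deposited detection call. Per the file headers the 4- and 8-week arrays lay on slide 1 and the 36- and 58-week arrays on slide 2, so only 8 against 4 weeks and 58 against 36 weeks compare ages within a slide. Age cannot be told apart from slide in the remaining 4 pairs. The image software asked for a manual look at 36-week replicate 4 and at replicates 1 and 4 of 4 weeks, here called the marked arrays. Their negative-control spots had an SD of 59.3, 19.1 and 7.45, against 1.82 to 4.45 elsewhere. On 36-week replicate 4 the dimmest detected miRNA was itself a member, miR-25-3p, at a scaled signal of 202. Members not detected on that array sat at the floor, which there is no measurement of a low level. Many results that rest on that array are given with and without it. Several 36-week means, the red cell measure and the summed signals of cell-type miRNAs are given with it only.

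Members ranged from never detected to detected on every array. miR-92a-3p and miR-25-3p, which share the miR-92 seed, were detected on 16 of 16 arrays. miR-93-5p was detected on 15 arrays, and miR-20a-5p, miR-19b-3p and miR-106b-5p on 14 each. miR-19a-3p was detected on 4 arrays, 1 at each age. miR-18a-5p was detected on 1 array, 4-week replicate 2, and miR-17-5p on none. Of the 480 spots that read miR-17-5p over the 16 arrays, 2 were well above background, against 308 of 480 for miR-20a-5p. Of the 9 members with a row, 6 passed the filter for testing, detection on at least 3 of the 4 arrays of an age.

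**Figure D1:**
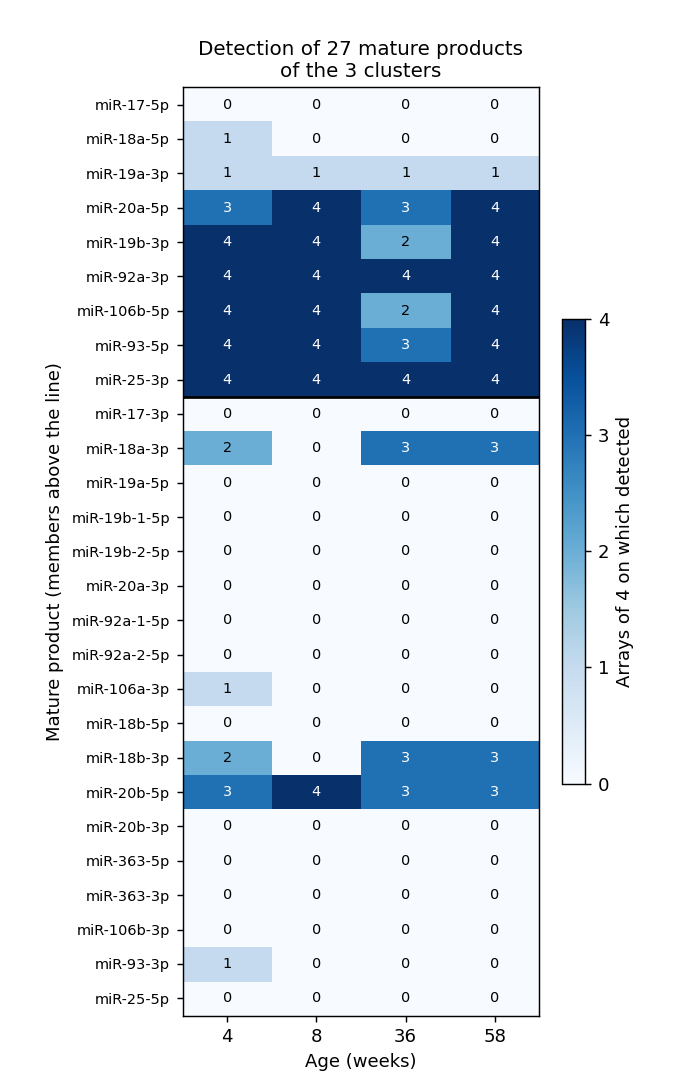
Number of arrays, of 4 at each age, on which each of 27 mature products of the 3 clusters was detected; rows are products (the 9 members above the line) and columns are ages in weeks. miR-92a-3p and miR-25-3p have 4 in every column, while miR-17-5p has 0 in every column.

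The members of miR-17-92 with a testable signal were miR-20a-5p, miR-19b-3p and miR-92a-3p. miR-92a-3p had log2 signals of 8.72, 9.05, 8.22 and 8.60 at 4 weeks, 8.73, 8.77, 8.84 and 7.73 at 8 weeks, 9.02, 8.43, 9.09 and 9.48 at 36 weeks, and 9.25, 9.39, 9.39 and 9.47 at 58 weeks. Its group means were 8.65 ± 0.34, 8.52 ± 0.53, 9.01 ± 0.43 and 9.37 ± 0.09 at 4, 8, 36 and 58 weeks (SD, n = 4 each). The 58-week arrays were the most alike and all lay above every 4-week and 8-week array, but they overlapped with the 36-week arrays, whose highest value came from the marked replicate 4. The order of its means was 8, 4, 36 and 58 weeks, and neighbours in that order differed by no more than the larger of their SDs.

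miR-19b-3p, the more readily detected of the miR-19 pair, had log2 signals of 5.09, 6.50, 5.21 and 4.49 at 4 weeks, 4.20, 4.94, 5.11 and 3.52 at 8 weeks, 5.70, 5.23, 1.92 and 1.92 at 36 weeks, and 6.09, 5.23, 5.99 and 5.87 at 58 weeks. The 2 values of 1.92 at 36 weeks, replicates 3 and 4, are the floor, where it was not detected. Its means were 5.32 ± 0.84, 4.44 ± 0.73, 3.69 ± 2.05 and 5.80 ± 0.39 at 4, 8, 36 and 58 weeks (SD, n = 4). Without the marked replicate 4 its 36-week mean was 4.28 ± 2.06 (SD, n = 3). Every 58-week array lay above every 8-week array, whereas the 2 detected 36-week values lay inside or below the range of the 58-week ones.

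miR-20a-5p, of the miR-17 seed family, had log2 signals of 5.04, 6.02, 5.16 and 5.16 at 4 weeks, 3.86, 4.80, 5.10 and 3.10 at 8 weeks, 5.65, 5.18, 5.67 and 1.92 at 36 weeks, and 5.43, 5.10, 5.90 and 5.27 at 58 weeks. Only 36-week replicate 4 sat at the floor, and 4-week replicate 1 had signal but no detection call. Its means were 5.34 ± 0.45, 4.22 ± 0.91, 4.61 ± 1.81 and 5.42 ± 0.35 at 4, 8, 36 and 58 weeks (SD, n = 4). Without the marked array its 36-week mean was 5.50 ± 0.28 (SD, n = 3), and the 3 remaining values lay within the 58-week range.

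miR-19a-3p, which differs from miR-19b-3p by that 1 base, was detected once per age, at log2 4.23 (4 weeks, replicate 2), 2.94 (8 weeks, replicate 2), 3.62 (36 weeks, replicate 1) and 4.13 (58 weeks, replicate 3). miR-18a-5p stood at 3.04 on 4-week replicate 2 and at the floor on the other 15 arrays, and miR-17-5p stood at the floor on all 16. Neither was tested, and with detection on at most 1 array no fold is given.

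Of the miR-106b-25 members, miR-25-3p had log2 signals of 8.06, 8.19, 8.17 and 8.21 at 4 weeks, 7.44, 7.69, 7.90 and 7.62 at 8 weeks, 7.75, 8.04, 8.80 and 7.66 at 36 weeks, and 8.12, 7.67, 8.57 and 7.80 at 58 weeks. Its means were 8.16 ± 0.07, 7.66 ± 0.19, 8.06 ± 0.52 and 8.04 ± 0.40 at 4, 8, 36 and 58 weeks (SD, n = 4). The 4-week arrays were close together and all lay above the 8-week arrays, while the older ages spread over both ranges.

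miR-93-5p, which carries the miR-17 seed, had log2 signals of 6.22, 6.88, 6.75 and 6.45 at 4 weeks, 5.44, 5.79, 5.85 and 5.99 at 8 weeks, 6.03, 6.46, 7.79 and 1.92 at 36 weeks, and 6.41, 5.71, 6.93 and 5.83 at 58 weeks. Its 8-week arrays also lay below all 4-week arrays. Its highest value of all, and that of miR-25-3p, came from 36-week replicate 3. The 36-week mean was 5.55 ± 2.53 with all 4 arrays and 6.76 ± 0.92 without replicate 4 (SD, n = 3), against 6.22 ± 0.56 at 58 weeks.

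miR-106b-5p, the first hairpin of the cluster, had log2 signals of 5.42, 6.03, 5.69 and 5.72 at 4 weeks, 4.53, 5.46, 5.68 and 5.28 at 8 weeks, 5.84, 5.70, 3.48 and 1.92 at 36 weeks, and 6.03, 4.94, 6.41 and 5.47 at 58 weeks. It was not detected on 36-week replicates 3 and 4, its 2 lowest values. The 2 values left at 36 weeks lay above every 8-week value and within the ranges of 4 and 58 weeks. On replicate 3, therefore, miR-106b-5p was low while its neighbours miR-93-5p and miR-25-3p were at their highest.

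**Figure D2:**
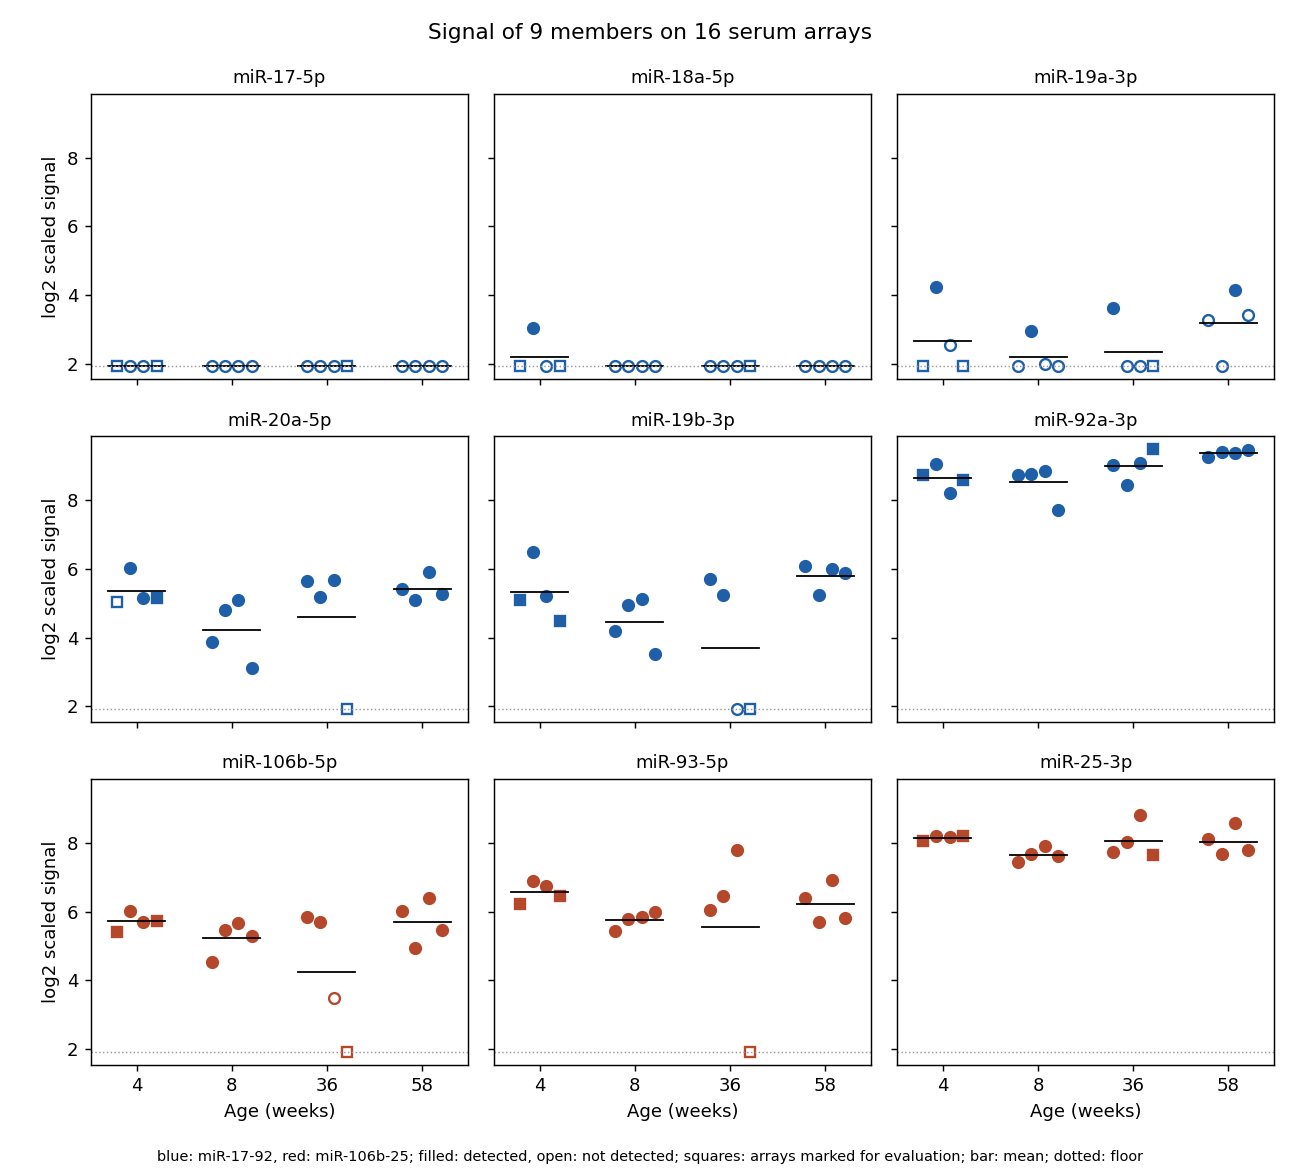
log2 scaled signal of 9 members (panels) on each array, against age in weeks; each point is an array, filled where the member was detected and open where it was not, squares are the 3 arrays marked for evaluation, bars are group means and the dotted line is the floor at 1.92. The open points at 36 weeks for miR-19b-3p and miR-106b-5p are replicates 3 and 4.

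At 8 weeks against 4 weeks, both on slide 1, all 6 tested members were lower on average and none passed the test. The differences ranged between -1.13 for miR-20a-5p and -0.13 for miR-92a-3p, with a median of -0.65, but the median over all 285 tested miRNAs was -0.72 and 80.4% of them were lower. With limma, 0 of 6 members and 0 of 285 miRNAs (0%) passed an adjusted p of 0.05, and 0 members against 2.11% of all had an unadjusted p under 0.05. miR-25-3p differed by -0.50 (95% interval -1.31 to 0.32, limma adjusted p = 0.536) and miR-93-5p by -0.81 (-2.69 to 1.08, adjusted p = 0.656). These were the 2 members of 6 whose 8-week arrays all lay below their 4-week arrays, as did those of 3.86% of all tested miRNAs. miR-20a-5p differed by -1.13 (-2.69 to 0.44, adjusted p = 0.536), miR-19b-3p by -0.88 and miR-106b-5p by -0.48, all with overlapping groups. Under quantile normalization miR-20a-5p, miR-19b-3p, miR-106b-5p and miR-93-5p turned higher at 8 weeks, by 0.04 to 0.44. Without 36-week replicate 4, which changes the miRNAs used for scaling, the members' median was -0.27, that of all tested miRNAs was -0.30, and miR-92a-3p turned to 0.25. Without the 3 marked arrays, which include replicates 1 and 4 of 4 weeks, 4 of 6 members were lower, with a median of -0.32. The median of all tested miRNAs was then 0.09, miR-92a-3p stood at 0.41 and miR-25-3p at 0.0023.

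At 58 weeks against 36 weeks, both on slide 2, 5 of the 6 members were higher on average, against 31.2% of all tested miRNAs, and none passed the test. The median difference of the members was 0.74, and that of the 285 tested miRNAs was -0.52. Again 0 of 6 members and 0 of 285 miRNAs (0%) passed with limma, and 1 member against 1.75% of all miRNAs had an unadjusted p under 0.05. That member was miR-19b-3p, with a difference of 2.10 (95% interval 0.38 to 3.83, limma unadjusted p = 0.0201, adjusted p = 0.717). miR-106b-5p followed at 1.48 (-0.06 to 3.02, adjusted p = 0.717), then miR-20a-5p at 0.82, miR-93-5p at 0.67, miR-92a-3p at 0.37 and miR-25-3p at -0.02. The members' groups overlapped in 6 of 6 cases, while 3.86% of tested miRNAs were higher with no overlap. Leaving the values of 36-week replicate 4 aside, miR-92a-3p was higher at 58 weeks with no overlap, as were 5.61% of all tested miRNAs. Without 36-week replicate 4 the members' median was 0.43, against 0.30 for all tested miRNAs, and miR-93-5p turned to -0.33. In that setting 0 of 6 members, miR-19b-3p included, had an unadjusted p under 0.05 (limma), against 7 of 279 tested miRNAs. Without that array miR-92a-3p stood at 0.74, miR-20a-5p at 0.13, miR-19b-3p at 1.54 and miR-106b-5p at 0.92, the last 2 resting on 36-week replicate 3, where neither was detected. Leaving out all 3 marked arrays, 2 of 6 members had an unadjusted p under 0.05 (limma), against 19 of 272 tested miRNAs. The members' median was then 0.50, that of all tested miRNAs was 0.32, and no member passed. With 36-week replicate 4 included, the 2 probes of miR-93-5p disagreed in sign, at -0.26 and 0.35. On that array the first probe sat at the floor and the second at 4.19, and no probe difference without it was computed. With quantile normalization or the deposited total signal miR-25-3p was higher at 58 weeks, by 1.00 and 0.06, and with no scaling miR-92a-3p stood at -0.12.

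**Figure D3:**
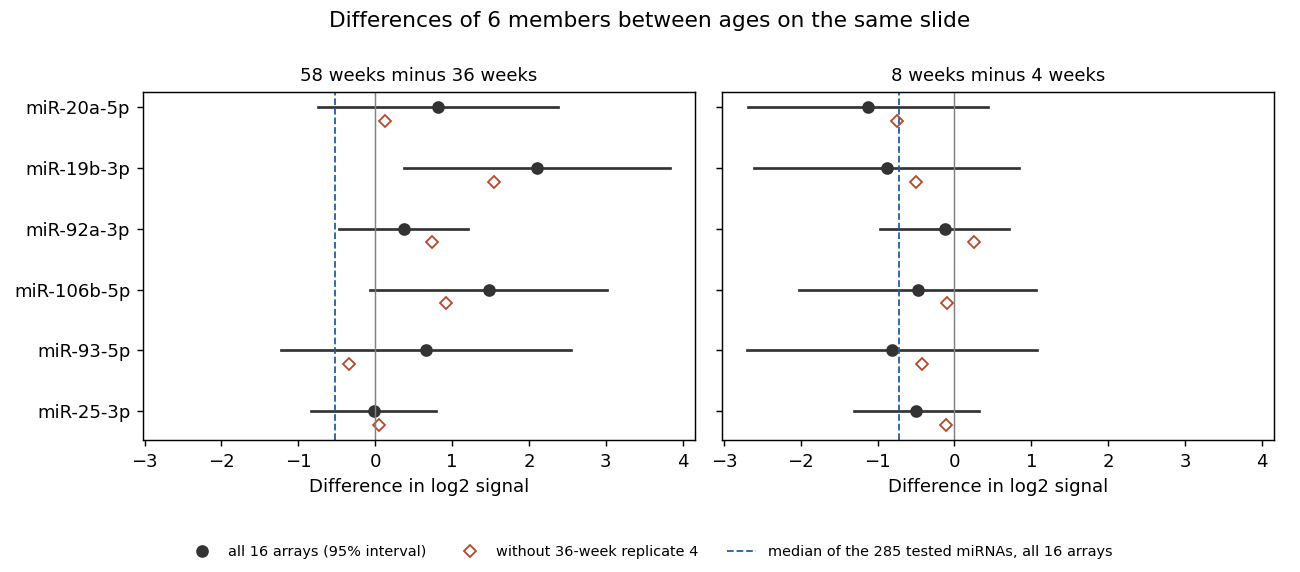
Difference in log2 signal of the 6 tested members (rows) for 58 minus 36 weeks and 8 minus 4 weeks; black points and lines are the limma differences and 95% intervals over all 16 arrays, open diamonds are the differences without 36-week replicate 4, and the dashed line is the median of the 285 tested miRNAs. The interval of miR-19b-3p for 58 minus 36 weeks over all 16 arrays, 0.38 to 3.83, is the only one of the 12 that does not span 0.

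Across all 4 ages, and for the 4 pairs that also differ in slide, 0 of 6 members passed in any comparison. The F test for any difference among ages called 1 of 285 miRNAs (0.351%) and none of the members, whose lowest adjusted p was 0.477 (limma). The slope per doubling of age also called 1 of 285 (0.351%). Among the members 1 had an unadjusted p under 0.05, against 8.77% of all tested miRNAs. It was miR-92a-3p, whose slope was 0.19 per doubling of age (95% interval 0.01 to 0.37, limma unadjusted p = 0.0390, adjusted p = 0.525). Age and slide cannot be told apart in that slope, and with no scaling between arrays it was -0.02. Without 36-week replicate 4, 0 of 6 members had an unadjusted p under 0.05 for the slope (limma), against 35 of 279 tested miRNAs. Without all 3 marked arrays 1 of 6 members had, against 166 of 272 tested miRNAs. The lowest member adjusted p was then 0.081 (limma).

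At 58 weeks miR-92a-3p stood 0.86 above 8 weeks (95% interval 0.01 to 1.70, limma unadjusted p = 0.0469, adjusted p = 0.408), where 0 of 285 miRNAs (0%) passed and 5.26% had an unadjusted p under 0.05. Without 36-week replicate 4, 0 of 6 members had an unadjusted p under 0.05 in this comparison (limma), against 35 of 279 tested miRNAs. Without all 3 marked arrays 1 of 6 members had, against 81 of 272 tested miRNAs, and no member passed. The 58-week arrays of miR-92a-3p lay above all its 8-week arrays, as did those of miR-19b-3p. Thus 2 of 6 members, against 7.72% of all tested miRNAs, were higher with no overlap. Against 4 weeks, where 1 of 285 miRNAs (0.351%) passed, miR-92a-3p was the 1 member of 6 with no overlap, against 3.86% of all tested miRNAs. These separations depended on the scaling: with no scaling 0 of 6 members were higher with no overlap at 58 weeks than at 8 weeks (1.4% of all tested miRNAs) or at 4 weeks (0.351%). Unscaled signals of miR-92a-3p were 402 to 512 at 58 weeks, against 290 to 464 at 8 weeks and 432 to 725 at 4 weeks. Also with no scaling, 3 of 6 members were lower at 58 than at 4 weeks with no overlap, against 21.8% of all tested miRNAs.

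In 36 against 4 weeks (0.351% called) 1 member was higher and 5 were lower, against 56.8% and 43.2% of all tested miRNAs. Without 36-week replicate 4, 3 were higher and 3 lower, with a median of -0.03 in place of -0.88, while the median of all tested miRNAs was -0.24 in place of 0.32. With normexp background correction all 6 were higher, and with quantile normalization or no scaling all 6 were lower. In 36 against 8 weeks (0% called, 29.8% at an unadjusted p under 0.05 and no member among them) 3 members were higher and 3 lower, against 62.1% and 37.5%. Without 36-week replicate 4, 19 of 279 tested miRNAs and 0 of 6 members had an unadjusted p under 0.05 there (limma). With all arrays, the members overlapped in both 36 against 4 and 36 against 8 weeks. In these, 0% and 2.46% of all tested miRNAs were higher and 1.4% in each were lower with no overlap. For 36 against 8 weeks, leaving the values of 36-week replicate 4 aside, miR-20a-5p and miR-93-5p were higher with no overlap, 2 of 6 members against 9.12% of all tested miRNAs. With limma's array weights, an alternative that gives noisy arrays less influence, miR-92a-3p passed in 5 of the 8 comparisons, including 58 against 36 weeks within a slide (0.75, adjusted p = 0.0384). In the same setting miR-20a-5p passed in 3, and miR-19b-3p and miR-93-5p in 1 each. That setting called 15.1% of all tested miRNAs in 58 against 36 weeks, 62.1% in 58 against 4, 63.2% in 36 against 8 and 67.7% in 58 against 8 weeks. It called 76.5% for any difference among ages and 68.8% for the trend, and its iteration did not reach its convergence tolerance.

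The pair that shares the miR-92 seed was compared within each array, where a scaling factor cancels. miR-92a-3p minus miR-25-3p was 0.67, 0.85, 0.05 and 0.39 at 4 weeks, 1.29, 1.08, 0.94 and 0.11 at 8 weeks, 1.27, 0.39, 0.28 and 1.83 at 36 weeks, and 1.13, 1.72, 0.81 and 1.67 at 58 weeks. Its means were 0.49 ± 0.35, 0.86 ± 0.52, 0.94 ± 0.74 and 1.33 ± 0.44 (SD, n = 4 each). With all 4 arrays per age, the ages next to each other overlapped and differed by less than 1 SD of the wider group. The 36-week value of 1.83 came from the marked replicate 4, where 0 of 30 spots of miR-25-3p were well above background. The other 36-week arrays gave 1.27, 0.39 and 0.28, the last 2 below every 58-week array. The 36-week mean and SD thus rest in part on replicate 4, and no mean without it was computed. The 4- and 58-week ranges, which met only between 0.81 and 0.85, lie on different slides. No test was run on this difference.

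The miR-93-5p minus miR-25-3p difference, within the Mcm7 cluster, had a small spread at 3 of the 4 ages. Its means were -1.58 ± 0.26 at 4 weeks, -1.90 ± 0.19 at 8 weeks and -1.82 ± 0.17 at 58 weeks (SD, n = 4 each). At 36 weeks 3 arrays gave -1.72, -1.58 and -1.01, and the marked replicate 4, where miR-93-5p was at the floor, gave -5.74. The miR-106b-5p minus miR-93-5p difference was -4.32 on 36-week replicate 3, against -1.06 to -0.17 on the other arrays, leaving aside the marked 36-week replicate 4, where both members were at the floor. On the same array miR-19b-3p minus miR-20a-5p was -3.75, against -0.67 to 0.67 on those other arrays. That array carried no evaluation mark, and both low members were low on both of their probes.

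**Figure D4:**
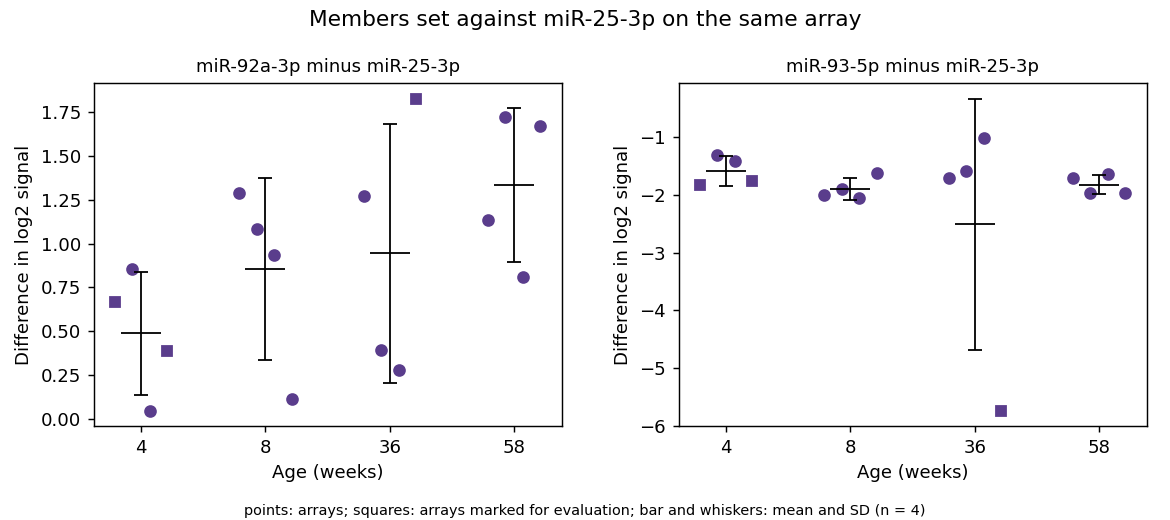
Difference in log2 signal between members on the same array, miR-92a-3p minus miR-25-3p and miR-93-5p minus miR-25-3p, against age in weeks; points are arrays, squares are the 3 marked arrays, and bars with whiskers are the mean and SD of 4. The left panel has means of 0.49 at 4 weeks and 1.33 at 58 weeks with overlapping arrays, and the right panel has a single low point of -5.74 at 36 weeks.

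To see which members moved together from array to array, 15 pairs of the 6 tested members were correlated over the 16 arrays, which share RNA input, scaling and background. miR-93-5p and miR-25-3p had Pearson r = 0.644 (permutation p = 0.00913, adjusted over the 15 pairs 0.0345) and Spearman rho = 0.903 (adjusted permutation p = 0.00015). Their r was 0.916 without the 2 arrays farthest from the median, 0.954 without the 3 marked arrays, 0.896 within slide 1 and 0.690 within slide 2. In the same cluster, miR-106b-5p had r = 0.656 with miR-93-5p and 0.167 with miR-25-3p (adjusted permutation p = 0.0904 and 0.6575). The rho of these pairs were 0.571 and 0.544 (adjusted permutation p = 0.0504 and 0.0608). Without the 2 farthest arrays their r were 0.819 and 0.845, but without the 3 marked arrays they were -0.144 and -0.051. miR-19b-3p and miR-106b-5p, from different clusters, had r = 0.880 (adjusted permutation p = 0.00195) and rho = 0.793 (adjusted permutation p = 0.00338). Their r was 0.655 without the 2 farthest arrays, 0.877 without the marked arrays, 0.673 within slide 1 and 0.941 within slide 2. The 2 farthest arrays were 36-week replicates 3 and 4, where neither member was detected. Replicate 3 is still in the r without the marked arrays, and both are in the r within slide 2. With miR-92a-3p the other 5 members had r between -0.255 and 0.193 (adjusted permutation p of 0.533 to 0.721) and rho between -0.218 and 0.293. Without the 2 farthest arrays of each pair these r lay between -0.302 and 0.743, and without the 3 marked arrays between 0.054 and 0.691. Its highest r over all arrays was with its miR-17-92 neighbour miR-20a-5p, at 0.691 without the marked arrays, 0.708 within slide 1 and -0.293 within slide 2. miR-20a-5p had r = 0.663 with its neighbour miR-19b-3p, 0.701 with miR-106b-5p and 0.607 with miR-25-3p (adjusted permutation p = 0.0345, 0.0345 and 0.03475). Their rho were 0.670, 0.706 and 0.765 (adjusted permutation p = 0.0136, 0.00918 and 0.00356). Without the 2 farthest arrays of each pair these r were 0.273, 0.350 and 0.687, and without the marked arrays 0.443, 0.284 and 0.666. miR-20a-5p and miR-93-5p, of the same seed family, had r = 0.8295 (adjusted permutation p = 0.0027) and rho = 0.768 (adjusted permutation p = 0.00356), with r of 0.683 without the 2 farthest arrays, 0.561 without the marked arrays, 0.663 within slide 1 and 0.953 within slide 2. The marked 36-week replicate 4 is in the r over all arrays and within slide 2. On it miR-20a-5p, miR-93-5p, miR-19b-3p and miR-106b-5p all sat at the floor.

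**Figure D5:**
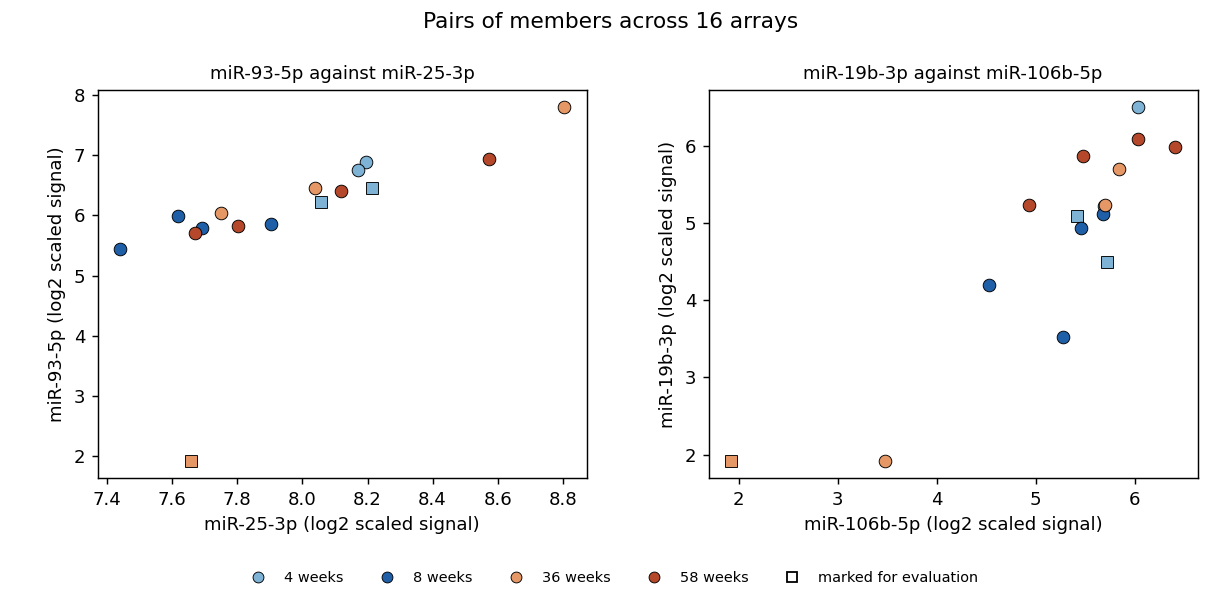
log2 scaled signal of miR-93-5p against miR-25-3p and of miR-19b-3p against miR-106b-5p; each point is an array, coloured by age, and squares are the 3 marked arrays. In the left panel 15 arrays follow a line and 36-week replicate 4 lies below it at 1.92, and in the right panel 36-week replicates 3 and 4 lie apart at the lower left.

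Of 276 tested miRNAs outside the 3 clusters, those most like the mean log2 signal of the 6 tested members over the 16 arrays were miR-15a-5p (r = 0.930), miR-126a-3p (0.901), miR-221-3p (0.887), let-7i-5p (0.879) and let-7g-5p (0.875). Over the 13 arrays without an evaluation mark these values were 0.819, 0.746, 0.710, 0.673 and 0.654. miR-15a is known in human leukaemia as a repressor of Bcl2, and miR-126a is an endothelial miRNA that platelets also carry.

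Red cells contain miR-92a and miR-25, and a red cell measure, log2 miR-451a minus log2 miR-23a-3p, was therefore read beside the members. It averaged 3.35 ± 0.74, 2.89 ± 0.62, 3.26 ± 0.90 and 2.73 ± 0.24 at 4, 8, 36 and 58 weeks (SD, n = 4 each). The difference was -0.46 for 8 against 4 weeks (2-sided exact permutation p = 0.4) and -0.53 for 58 against 36 weeks (exact p = 0.257), and the smallest p that 4 against 4 arrays allow is 0.0286. The measure was highest, at 4.55, on 36-week replicate 3, where miR-93-5p and miR-25-3p were at their highest. miR-92a-3p was highest, at 9.48, on the marked 36-week replicate 4, where the measure was 2.62. The mean of miR-92a-3p was highest at 58 weeks, at 9.37, the age where the mean of the measure was lowest. The measure's part in the members' values was not tested.

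Of the red cell list, 4 of the 5 miRNAs with a row were detected at least once, miR-451a and miR-486a-5p on all 16 and miR-144-5p on none. The list's summed scaled signal ranged over 4621 to 7791 at 4 weeks, 2601 to 4941 at 8 weeks, 2685 to 5906 at 36 weeks and 3782 to 7177 at 58 weeks. Platelet and endothelial miRNAs were detected in 5 of 6 cases, and their sum ranged over 706 to 955 at 4 weeks, 393 to 973 at 8 weeks, 297 to 1551 at 36 weeks and 1297 to 1425 at 58 weeks, with miR-126a-5p detected on none. The others were miR-126a-3p, miR-223-3p, miR-24-3p, miR-21a-5p and miR-221-3p. The highest single signals were 731 for miR-21a-5p and 579 for miR-223-3p, against 119 for miR-126a-3p. Leukocyte miRNAs were detected in 4 of 6 cases, with sums of 131 to 317, 81.2 to 202, 164 to 481 and 330 to 410 in the same order of ages, and miR-155-5p and miR-142a-5p on none. Liver miRNAs were detected in 3 of 3 cases, with sums of 45.0 to 1253, 25.8 to 393, 62.7 to 495 and 169 to 252. Muscle and heart miRNAs were detected in 2 of 5 cases, with sums of 83.4 to 325, 54.7 to 246, 228 to 912 and 74.5 to 287. Over the whole array 572 of 1881 miRNAs were detected at least once. No miRNA of these 5 lists passed in any of the 8 comparisons with limma, and the part of these cell types in the members' values was not tested.

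The other 18 mature products of the 3 clusters, mostly partner strands of the members, were detected on at least 1 array in 5 cases and on none in 13. miR-20b-5p, a miR-17 relative from the X cluster, was detected on 13 arrays, and its log2 means at 4, 8, 36 and 58 weeks were 4.56, 3.30, 3.81 and 4.43. Like the tested members, it was lower at 8 than at 4 weeks (-1.25, limma adjusted p = 0.536) and did not pass. miR-18a-3p and miR-18b-3p were each detected on 8 arrays and on none at 8 weeks, with 2 at 4 weeks, 3 at 36 weeks and 3 at 58 weeks. Their highest signals, both 8.45, came from 36-week replicate 4 and the next, 6.95 and 6.83, from 4-week replicate 1, the 2 arrays with the largest negative-control SD. The part of that background in their signal was not tested. miR-106a-3p and miR-93-3p were each detected on 1 array, 4-week replicate 1. Of these 18 products 3 were tested, and 0 of 3 passed in any of the 8 comparisons.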

How the data were processed

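Serum miRNAs were measured on 16 single-colour Agilent arrays. Per the submitters' processing notes the authors processed the scans with Agilent Feature Extraction 11.5, and the deposited intensity is its background-subtracted signal, beside its outlier flags and detection calls; other steps are not given in the sources used here. From the deposited intensity, outlier spots were left out, spots were averaged to probes and probes to miRNAs. Arrays were scaled on the 75th percentile of the 24 miRNAs detected on all 16, floored at 3.79 and taken to log2. miRNAs detected on at least 3 arrays of an age (285) were tested with limma 3.58.1 (R 4.3.3, lmFit and eBayes) for the 4 ages, the trend and 6 pairs, Benjamini-Hochberg adjusted per comparison over all 285. Correlations used 100000 permutations. The fit was tested on simulated data with independent noise for each miRNA. These data held no floor, slide difference or noisy array, so the simulation cannot say how the fit handles them. The number of arrays, 4 per age, limits the precision, and the limma p-values set each difference against the residual spread between these samples. All 10 members are named, with other cluster products detected on any array and the 5 miRNAs most like the members. Members and lists were chosen with earlier results of these data known. Alternatives covered scaling, background, filters, floor, probes, variance models, blocks and left-out arrays.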

Additional observations from a re-analysis of the deposited data

Results flagged for a closer look

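In 37 groups of 4 arrays the highest or lowest array was compared with the others, and 8 stood far apart. Chance gives about 1 in 20 among measured values, a rate that does not apply to the groups below with arrays at the floor. On 4-week replicate 2, miR-18a-5p stood at 3.04 with the other 3 arrays at the floor of 1.92, and miR-20a-5p stood at 6.02 with the others between 5.04 and 5.16. miR-19a-3p stood at 2.94 on 8-week replicate 2 with the others between 1.92 and 1.98, and at 3.62 on 36-week replicate 1 with the others at the floor. miR-20a-5p stood at 1.92, the floor, on 36-week replicate 4, with the others between 5.18 and 5.67. On 8-week replicate 4, miR-92a-3p was lowest at 7.73, with the others between 8.73 and 8.84. Among negative-control spots the SD reached 3.54 on 8-week replicate 3, with the others between 1.82 and 2.01, and 59.3 on 36-week replicate 4, with the others between 2.76 and 4.39.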

How the results depend on the processing

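Of the 34 alternatives, each run for the comparisons it could be fitted to (the slide block for 4, the 2 ages alone for the 6 pairs, the random slide block for the trend), array weights was the only one under which members passed, with 2 members for any difference, 1 for the trend, 1 for 58 against 36, 1 for 58 against 4, 2 for 36 against 8 and 3 for 58 against 8 weeks. As reported, counts over all miRNAs were 0 or 1 in each comparison. Array weights gave 218 for any difference, 196 for the trend, 43 for 58 against 36, 12 for 36 against 4, 177 for 58 against 4, 180 for 36 against 8 and 193 for 58 against 8 weeks. Without the 3 marked arrays the counts were 12 for any difference, 146 for the trend, 2 for 58 against 36, 5 for 36 against 4, 9 for 58 against 4 and 4 for 58 against 8 weeks. For any difference and for 36 against 4 and 58 against 4 weeks, 0 passed with quantile normalization, the deposited total signal, normexp, detection on at least 8 arrays, outlier spots kept or the replicate block. A count of 0 also came from the slide block, the raised floor and the intensity trend for any difference, from the 2 ages alone for 36 against 4 weeks, and from quantile normalization, the total signal, 8 arrays, outlier spots kept and the slide blocks, fixed or random, for the trend. With no scaling the counts were 3 for any difference, 6 for the trend, 3 for 36 against 4 and 3 for 58 against 4 weeks, and with the brightest probe they were 4, 8, 4 and 4. Detection on at least 1 array gave 2 for any difference, 1 for 8 against 4, 2 for 36 against 4 and 2 for 58 against 4 weeks. The trend had 22 with normexp, and 58 against 4 weeks had 2 with the raised floor and 4 with the 2 ages alone. Leaving out 1 array at a time gave 0 to 2 for any difference, 1 to 3 for the trend, 0 to 2 for 36 against 4, 0 to 3 for 58 against 4 and 0 to 1 for 58 against 8 weeks.

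For 8 against 4 weeks quantile normalization turned miR-20a-5p to 0.036, miR-19b-3p to 0.34, miR-106b-5p to 0.44 and miR-93-5p to 0.15. miR-92a-3p turned to 0.046 with the brightest probe, 0.12 with array weights, 0.29 with the 2 ages alone and 0.41 without the marked arrays, where miR-25-3p was 0.0023. Leaving out 1 array gave -0.27 to 0.25 for miR-92a-3p. For 58 against 36 weeks miR-93-5p turned to -0.10 with normexp, -0.46 with array weights and -0.27 without the marked arrays, and miR-20a-5p to -0.027 with array weights. miR-25-3p turned to 1.00 with quantile normalization, 0.061 with the total signal, 0.13 with the brightest probe and 0.12 without the marked arrays, and miR-92a-3p to -0.12 with no scaling. Leaving out 1 array gave -0.33 to 1.44 for miR-93-5p and -0.22 to 0.23 for miR-25-3p. The slope of miR-92a-3p was -0.016 with no scaling, and 0.24 with array weights. The causes were not tested.

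The median of all tested miRNAs for 8 against 4 weeks was 0.09 with quantile normalization and -1.20 with no scaling, against -0.72. Added settings, chosen after seeing the data, left the 36-week replicate 4 out of the overlap counts or used no scaling for them. Replicate numbers did not pair the arrays: correlations of same-numbered deviations ran from -0.896 to 0.812, and 2 of 16 arrays correlated best with their own number. With the replicate block 0 miRNAs passed in 7 comparisons and 1 in the trend. The 75th percentile over all miRNAs was not run, being not above 0 on every array, nor was a random slide block for the F test and pairs, where each age lies on 1 slide. Dim members, those near the floor, could not be measured where the background was high.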
